A study of Mus musculus with 4 samples.

Results

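The 10 genes examined encode enzymes of glycolysis: Hk2, Gpi1, Pfkl, Pfkp, Aldoa, Tpi1, Pgk1, Eno1, Pkm and Ldha. They were chosen by symbol, and these 10 symbols match 11 of the 21044 rows in the series' FPKM table, because Aldoa stands there under 2 identifiers. The second Aldoa row (ENSMUSG00000114515) was listed at 0 in 3 libraries and at 0.0746 FPKM in cKO replicate 1. It had no read counts in the pairwise tables, so all 10 genes with counts, and no others, were described, and all 10 passed the filter on low counts.

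RNA-seq was done on microglia, the resident macrophages of the brain, isolated at postnatal day 7 from the corpus callosum, the large white-matter tract between the hemispheres, of mice. The cKO group (2 libraries) came from mice labelled Lag3cKO-Cx3, a conditional knockout of the inhibitory receptor gene Lag3. The WT group (2 libraries) came from Lag3fl/fl mice, which carry the floxed allele and have the genotype label wt. The sources used here give neither the driver behind the Cx3 label nor the sex of the mice or how many were pooled per library. P-values therefore measure only the spread between these libraries, which may be technical.

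Total counts ranged from 14645187 to 16770162 per library. Lag3 was at 35.4 and 17.1 CPM (counts scaled to the library size and by TMM factors) in the cKO libraries, against 386.7 and 683 CPM in the WT libraries. Cx3cr1, the fractalkine receptor gene, was at 3404 and 3034 CPM in cKO and at 6443 and 6554 CPM in WT. Neither passed edgeR's test with these 4 libraries, and both passed DESeq2, with adjusted p of 1.0e-19 for Lag3 and 2.5e-08 for Cx3cr1. The 10 microglial markers, which include Cx3cr1, were all detected, and summed to 30100 and 28180 CPM in cKO and to 28960 and 31860 CPM in WT. These sums therefore also carry the lower Cx3cr1 of the cKO libraries. The library cKO replicate 2 stood apart. It had 12787 genes with a count, where the other 3 libraries had 14840 to 15899. Of 11 astrocyte markers only S100b was at 0 in it, and they summed to 546.3 CPM, against 253.7 CPM in cKO replicate 1 and 238.2 and 188.5 CPM in WT. Of 9 neutrophil and monocyte markers with counts none was at 0 in it, and they summed to 146.6 CPM, against 24.9 CPM in cKO replicate 1 and 18.4 and 13.6 CPM in WT. Xist, transcribed in female cells, was at 6.97 and 290.4 CPM in cKO and at 0 in both WT libraries, and the Y-linked Ddx3y was at 107 and 0 CPM in cKO and at 94.7 and 89.1 CPM in WT. From these 2 genes, sex and genotype cannot be told apart in cKO replicate 2. Neuronal markers summed to 22.7 and 63.4 CPM in cKO and to 9.87 and 23.2 CPM in WT. Of 5 neuronal markers with counts, 3 (Rbfox3, Snap25 and Stmn2) were at 0 in cKO replicate 2, so its sum rests on the others. Erythroid markers summed to 11.2 and 12.5 CPM in cKO and to 3.57 and 4.84 CPM in WT. Of 4 with counts, Alas2 was at 0 in cKO replicate 2 and Hba-a2 in WT replicate 1. Oligodendrocyte lineage markers summed to 211.8 and 136.4 CPM in cKO and to 130.9 and 137.1 CPM in WT, highest in cKO replicate 1. Border macrophage markers summed to 507.7 and 529.4 CPM in cKO and to 488.5 and 537.0 CPM in WT. Endothelial and pericyte markers summed to 28.45 and 21.76 CPM in cKO and to 23.25 and 17.65 CPM in WT, with 5 of 7 at 0 in cKO replicate 2.

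Glycolysis splits glucose into pyruvate in the cytosol. Its first steps, from hexokinase to triosephosphate isomerase, spend ATP and prepare the sugar phosphates, and its later steps, from phosphoglycerate kinase to pyruvate kinase, return ATP. Lactate dehydrogenase then converts pyruvate to lactate and restores the NAD+ that the pathway consumes. Many of these genes are known targets of the hypoxia-inducible factor HIF-1, and activated macrophages and microglia are known to raise glycolysis.

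None of the 10 glycolytic genes passed the test between cKO and WT, and the 2 cKO libraries differed from each other. The median difference, cKO replicate 2 minus cKO replicate 1 on the log2(CPM + 1) scale, was -0.44 over the 10 genes and -0.08 over all genes tested. Of the 10, 9 were fitted lower in cKO, where 51.8% of all 13086 genes tested were fitted lower. The median log2 fold change (cKO over WT) was -0.22 over the 10 genes and -0.03 over all genes tested, and single genes ranged from -0.36 for Tpi1 to 0.22 for Pfkp. With cKO replicate 1 set against the mean of WT, the median difference on the log2(CPM + 1) scale was -0.03 over the 10 genes. With cKO replicate 2 it was -0.44, where it was -0.11 over all genes tested and -0.02 over the 5982 genes within the range of mean CPM of the 10. The library cKO replicate 2 was the lowest of the 4 for 9 of the 10 genes, against 39.1% of all genes tested. The exception was Eno1, which was lowest in cKO replicate 1. The part of the markers of other cell types given above, and of sex, in the low values of cKO replicate 2 was not tested. In bulk RNA, fewer cells of a type and less RNA per cell cannot be told apart.

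The test was edgeR's quasi-likelihood F test on counts, with Benjamini-Hochberg adjustment over all genes tested. It called 0 of the 10 genes, with 0.00% of all genes called and an adjusted p of 0.9997 for each of the 10. Their unadjusted p ranged from 0.12 for Gpi1 to 0.684 for Pfkp, and none was under 0.05, where 4.65% of all genes (608 genes) were. DESeq2 on the same counts also called 0 of the 10, with 0.298% of all genes (39 genes) called. The standard error of the log2 fold change ran from 0.14 for Aldoa to 0.51 for Pfkp. In 3 genes, Gpi1, Aldoa and Pkm, both cKO libraries lay below both WT libraries, which held for 20% of all genes tested. In the other 7 the groups overlapped, and no gene of the 10 lay above WT in both cKO libraries, where 15.8% of all genes tested did. With 3 libraries the groups separate more readily. The count of 3 became 9 when cKO replicate 1 was left out, where 45.6% of all genes tested lay below WT in the same way, and 4 when cKO replicate 2 was, where 37.0% did. It became 6 when WT replicate 1 was left out, against 32.1% of all genes, and 5 when WT replicate 2 was, against 31.8%. With so few libraries an exact two-sided permutation test cannot give a p below 0.333. The test of edgeR did not call Lag3 either, at a log2 fold change of -4.35. It therefore cannot exclude changes of the size fitted for the 10 genes.

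**Figure D1:**
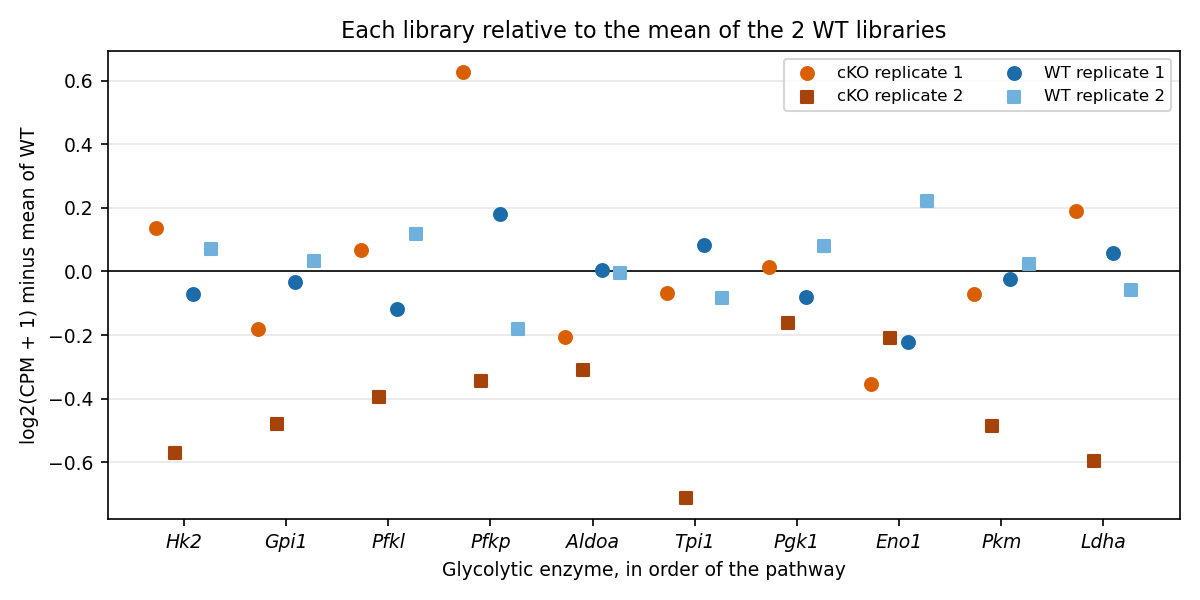
Each point is 1 library's log2(CPM + 1) minus the mean of the 2 WT libraries, for the 10 glycolytic genes in the order of the pathway. The dark orange squares of cKO replicate 2 are the lowest point for 9 genes, at -0.71 for Tpi1, while cKO replicate 1 lies on both sides of 0.

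Compared per length, the transcript of pyruvate kinase was the most abundant of the 10 in every library. Mean FPKM over the 4 libraries, from the authors' deposited table, was 543.7 for Pkm and 385 for Ldha. It was 219.2 for Pgk1, 215.1 for Tpi1 and 206.9 for Eno1, whose ranges over the libraries overlapped. Aldoa followed at 147 FPKM, Gpi1 at 92.7, Pfkl at 79.2, Hk2 at 29.1 and Pfkp at 1.57. Pkm stood above Ldha, and Gpi1 above Pfkl, in each of the 4 libraries, although the range of each pair overlapped across libraries. The gene length behind each FPKM, recovered from counts and FPKM, was 1.08 times (Hk2) to 3.23 times (Pfkp) the longest annotated coding transcript in GENCODE M21. A longer assumed length lowers the FPKM, so the order holds for the authors' lengths. Sequence shared with other annotated genes, described below, limits the order further. The 10 genes together summed to 2023 and 1564 FPKM in cKO and to 2020 and 2071 FPKM in WT. They took 0.836% and 0.642% of CPM in cKO, against 0.849% and 0.896% in WT.

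**Figure D2:**
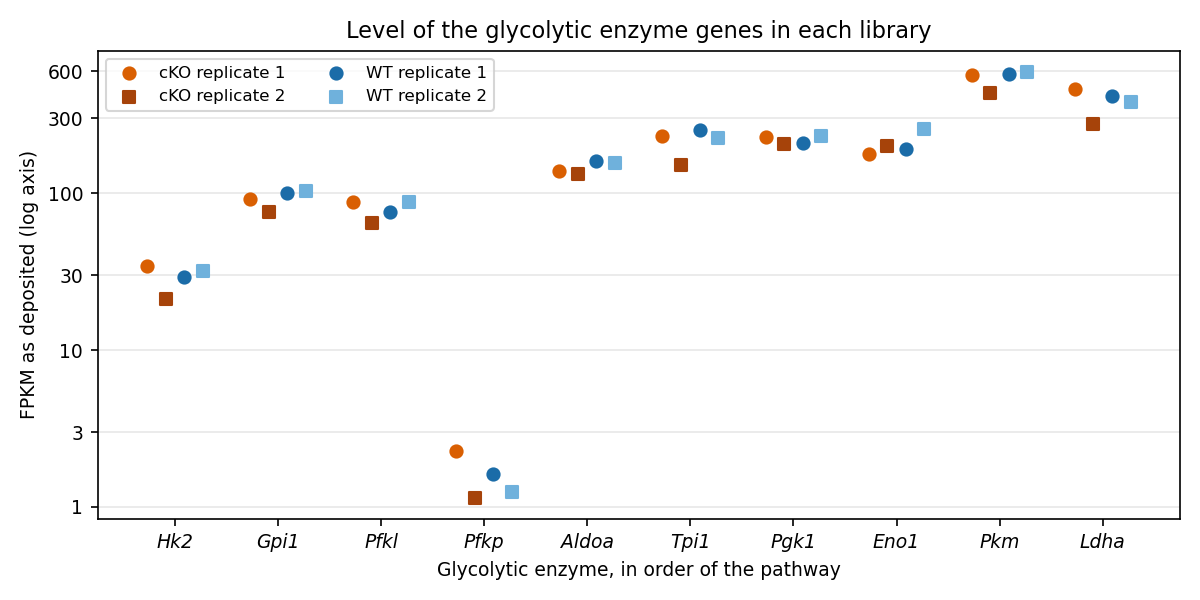
Deposited FPKM (log axis) of the 10 glycolytic genes in each library, in pathway order, with 1 point per library. Pkm is highest at 435 to 592 FPKM and Pfkp lowest at 1.15 to 2.27 FPKM.

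Among the enzymes that prepare the sugar, Gpi1 and Aldoa had groups that did not overlap, and Tpi1 had the lowest fitted fold change of the 10. The gene positions given for the 10 are those of the deposited table. They are read as GRCm38, since all but that of Aldoa equal those in GENCODE M21. Hk2 (ENSMUSG00000000628, chromosome 6, 82725025 to 82774454, minus strand) encodes hexokinase 2, which traps glucose in the cell by phosphorylation. It was at 203 and 124 CPM in cKO and at 176 and 194 CPM in WT, so the cKO libraries were the highest and the lowest of the 4. Its log2 fold change was -0.18 ± 0.29 (SE). Gpi1 (ENSMUSG00000036427, chromosome 7, 34201330 to 34230336, minus strand) encodes glucose-6-phosphate isomerase, which makes fructose 6-phosphate. It was at 589 and 479 CPM in cKO and at 652 and 683.5 CPM in WT. Both cKO values lay below both WT values, with a log2 fold change of -0.32 ± 0.17 (SE).

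Phosphofructokinase commits the sugar to glycolysis, and the liver-type gene Pfkl made up nearly all of its transcripts here. Pfkl (ENSMUSG00000020277, chromosome 10, 77986947 to 78010083, minus strand) was at 583 and 423 CPM in cKO and at 513 and 604 CPM in WT. The platelet-type gene Pfkp (ENSMUSG00000021196, chromosome 13, 6579768 to 6648777, minus strand) was at 30.4 and 15 CPM in cKO and at 22.0 and 16.9 CPM in WT. For Pfkl the lowest library was cKO replicate 2 and the highest WT replicate 2, and for Pfkp both WT values lay between the cKO values. The log2 fold change was -0.15 ± 0.22 for Pfkl and 0.22 ± 0.51 for Pfkp (SE). Pfkp had only 510 and 225 counts in cKO and 345 and 248 in WT. In addition, 17.1% of the 50-base windows of its longest coding transcript also occur, on the opposite strand, in transcripts of Pitrm1. Reads of the 2 genes cannot be told apart there unless strand was used in counting, on which the sources used here are silent.

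Aldolase splits the sugar into a pair of triose phosphates, and triosephosphate isomerase interconverts them. Aldoa (ENSMUSG00000030695, chromosome 7, 126795234 to 126808905, minus strand) was at 487 and 454 CPM in cKO and at 564 and 561 CPM in WT. Its replicates were the closest of the 10 genes in both groups on the log2 scale, and its log2 fold change was -0.26 ± 0.14 (SE). Tpi1 (ENSMUSG00000023456, chromosome 6, 124810586 to 124814296, minus strand) was at 636 and 407 CPM in cKO and at 707 and 630.0 CPM in WT. Only cKO replicate 2 lay clear of the other 3 libraries. The log2 fold change of Tpi1 was -0.36 ± 0.26 (SE), and leaving out a library moved it to -0.07 (cKO replicate 2 left out) or -0.72 (cKO replicate 1 left out).

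Among the enzymes that return ATP, Pkm lay below WT in both cKO libraries. Pgk1 (ENSMUSG00000062070, chromosome X, 106187100 to 106203699, plus strand), for phosphoglycerate kinase 1, was at 510 and 451 CPM in cKO and at 477 and 534 CPM in WT. Its log2 fold change of -0.07 ± 0.16 (SE) was the closest to 0 of the 10. Pgk1 is X-linked, and its lowest library was cKO replicate 2, the one with high Xist. That library was the lowest for 9 of the 10 genes. Pgk1 was the nearest of the 10 to WT in it, at -0.16 on the log2(CPM + 1) scale. A link of Pgk1 to sex was not tested. Pkm (ENSMUSG00000032294, chromosome 9, 59656368 to 59679375, plus strand) encodes muscle pyruvate kinase, whose splice forms PKM1 and PKM2 the gene counts do not separate. It was at 2838 and 2124 CPM in cKO and at 2930 and 3027 CPM in WT. The distance of cKO replicate 1 from the nearer WT library was smaller than that between the WT libraries, and cKO replicate 2 lay far below all. The log2 fold change of Pkm was -0.26 ± 0.18 (SE) with all libraries and -0.07 without cKO replicate 2. Without cKO replicate 1 it was -0.49, and Pkm alone of the 10 was then called by edgeR's quasi-likelihood test, with an adjusted p of 0.0475. That fit called 4.91% of all genes lower, had a median of -0.15 over all genes tested, and assumes that the lone cKO library varies like the WT libraries.

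**Figure D3:**
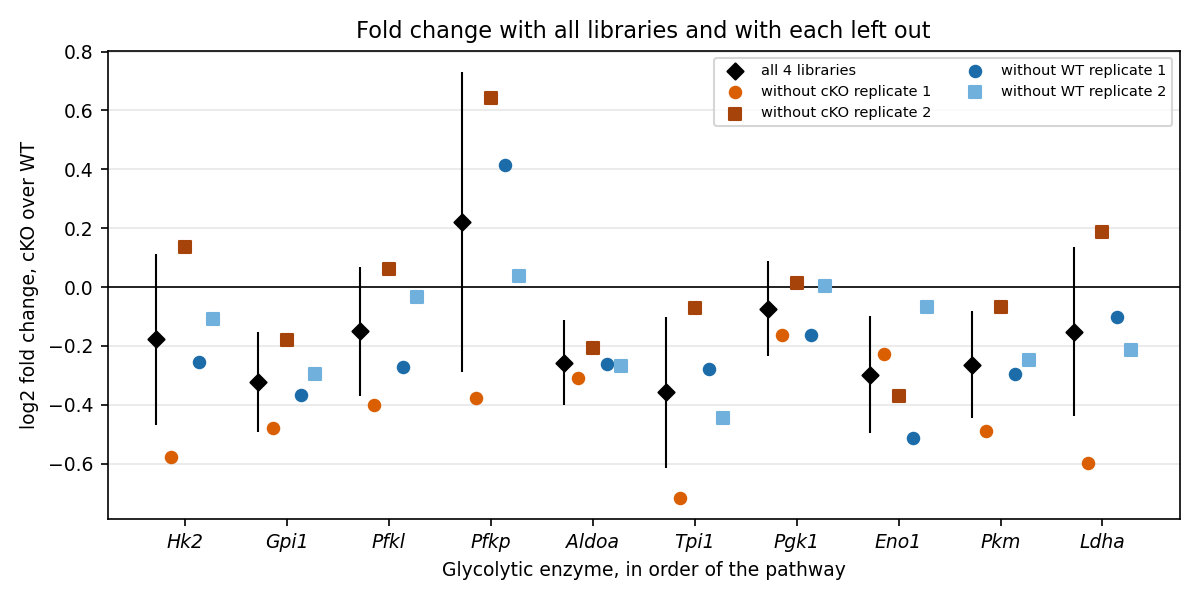
Log2 fold change (cKO over WT) of the 10 glycolytic genes with all 4 libraries (black diamonds, bars are 1 SE) and with each library left out. Points without cKO replicate 1 reach -0.72 for Tpi1, and without cKO replicate 2 Hk2, Pfkl, Pfkp, Pgk1 and Ldha lie above 0.

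Eno1 had its high value in 1 WT library, and its counts cannot be read apart from those of a near-identical copy. Eno1 (ENSMUSG00000063524, chromosome 4, 150236721 to 150248879, plus strand) encodes alpha-enolase. It was at 952 and 1052 CPM in cKO and at 1044 and 1418 CPM in WT, so WT replicate 2 stood above the other 3 libraries, which lay close together. Eno1b, an annotated copy of Eno1, was at 314 and 370.0 CPM in cKO and at 355 and 191 CPM in WT, so here WT replicate 2 was the low one. Of the 50-base windows of the longest coding Eno1 transcript, 70.5% also occur in Eno1b transcripts. Reads of either gene could thus be counted for the other or for neither, since the settings of the counting are not given. Summed, the 2 genes were at 1265 and 1423 CPM in cKO and at 1399 and 1609 CPM in WT. The log2 fold change was -0.30 ± 0.20 (SE) for Eno1 alone and -0.16 ± 0.15 (SE) for the sum, an alternative chosen after seeing the data. Other genes of the 10 also share windows with other annotated genes, which need not be copies, namely 68.0% of windows for Pgk1, 34.4% for Pkm, 25.3% for Gpi1, 16.6% for Ldha, 13.5% for Aldoa and 7.51% for Tpi1. For Hk2 it was 0%, and for Pfkl 0.0543%. The windows of Gpi1 were found in 122 other genes, and Gm1840 alone held 18.6% of its windows. Pgk1-rs7, the copy that holds 67.9% of the Pgk1 windows, was listed at 2.42 and 1.96 FPKM in cKO and at 2.66 and 1.81 FPKM in WT.

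Ldha was lowest and its partner Ldhb highest in the same library, cKO replicate 2. Ldha (ENSMUSG00000063229, chromosome 7, 46841475 to 46855627, plus strand) encodes the lactate dehydrogenase subunit that favours making lactate. It was at 1534 and 891 CPM in cKO and at 1400 and 1293 CPM in WT, so the cKO libraries were again the highest and the lowest. Its log2 fold change was -0.15 ± 0.29 (SE), which became 0.19 with cKO replicate 2 left out and -0.60 with cKO replicate 1 left out. Ldhb, the subunit that favours turning lactate back to pyruvate, was at 297 and 403 CPM in cKO and at 294 and 310 CPM in WT. In FPKM, Ldha made up 71.0% and 51.2% of the pair in cKO, against 69.3% and 66.4% in WT. The mean share was 61.1% ± 14.05 in cKO and 67.9% ± 2.04 in WT (SD, n = 2 each), with p = 1.0 by the exact two-sided permutation test over libraries. Of the astrocyte markers, which summed highest in cKO replicate 2 as given above, 7 of 10 tested (of 11 listed) lay above WT in both cKO libraries. This held for 15.8% of all genes tested. Ldhb is also expressed by astrocytes, and the part of astrocytes in the Ldha share was not tested.

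For hexokinase, both cKO libraries had a lower share of Hk2 and a higher share of Hk3 than both WT libraries, without passing a test. Hk3, the hexokinase typical of myeloid cells, exceeded Hk2 in FPKM in every library. Hk3 was at 352 and 320 CPM in cKO and at 289 and 285 CPM in WT, with a log2 fold change of 0.23 ± 0.16 (SE), which did not pass edgeR. Hk1, the widely expressed form, was at 25.1 and 12.9 CPM in cKO and at 25.4 and 29.1 CPM in WT. In FPKM the share of Hk2 among the 3 hexokinases was 25.7% and 19.1% in cKO, against 26.6% and 28.7% in WT. The share of Hk3 was 72.1% and 79.5% in cKO and 70.7% and 68.3% in WT. The mean share of Hk3 was 75.8% ± 5.28 in cKO and 69.5% ± 1.72 in WT (SD, n = 2 each), with p = 0.333 by the exact two-sided permutation test, the lowest p this design allows. Hk2 and Hk3 share no 50-base window with other annotated genes.

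For phosphofructokinase and aldolase 1 isozyme held over 95% in all libraries. Pfkl made up 95.4% and 97.4% of phosphofructokinase FPKM in cKO and 96.1% and 95.7% in WT. Aldoa made up 97.7% and 95.5% of aldolase FPKM in cKO, against 97.1% and 98.2% in WT, with Aldoc as the rest. For enolase, Eno1 made up 49.3% and 47.4% in cKO and 48.7% and 70.2% in WT, with the limit given above on telling it from Eno1b. These FPKM shares rest on the length assumed for each gene, which was 2.65 times the longest coding transcript for Eno1 and 0.981 times for Eno1b. In CPM, which takes no length into account, Eno1 made up 74.8% and 73.3% of enolase in cKO and 74.3% and 87.8% in WT.

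**Figure D4:**
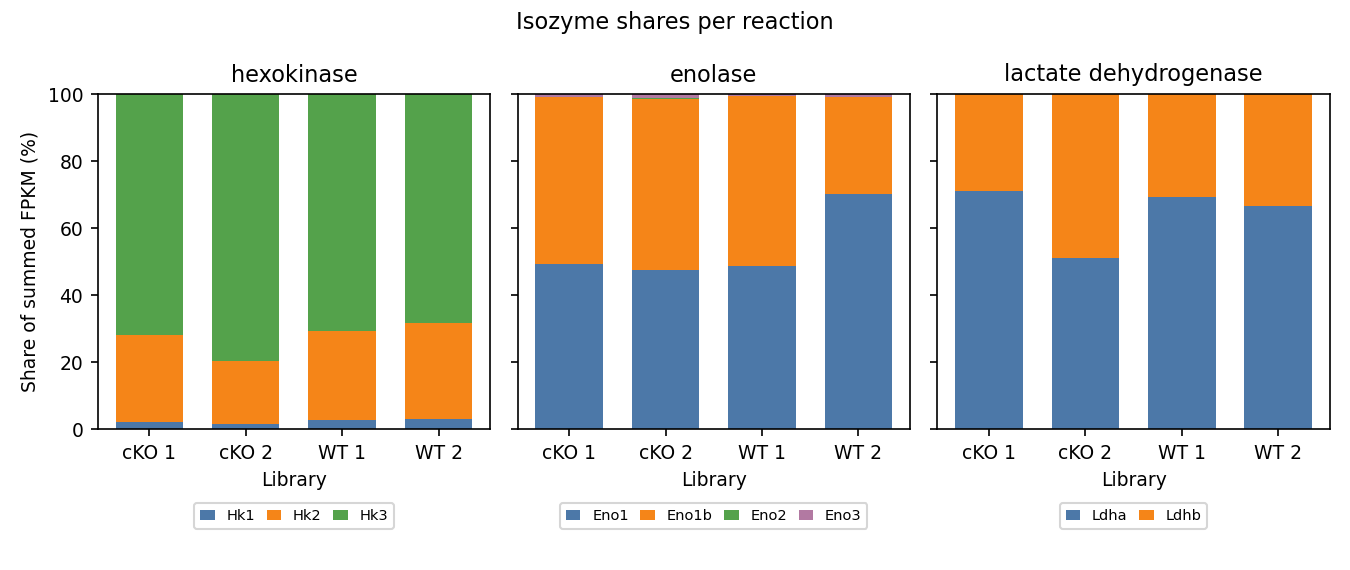
Share of each isozyme in the summed FPKM of its reaction (stacked bars from 0 to 100%), for hexokinase, enolase and lactate dehydrogenase in each library. Hk3 holds 68.3% to 79.5% of hexokinase, Eno1 stands out at 70.2% in WT replicate 2, and Ldha is at 51.2% in cKO replicate 2.

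Promoters of the 10 genes were read from RefSeq (GRCm38.p6, from 250 bases before to 50 bases after each start) and all 10 genes matched. The letters ACGTG, 1 form of the core of the site that HIF-1 is known to bind, were searched on both strands. The other form of that core, GCGTG, was not searched. CACGTG, the E-box, which contains an ACGTG match on each strand, was searched as well. At least 1 promoter held ACGTG for 5 of the 10 genes (Hk2, Aldoa, Pgk1, Pkm and Ldha), against 21.8% of 27025 genes. Several genes have more than 1 promoter window, 16 in all for the 10, of which 6 held ACGTG, against 19.6% of 32851 windows. CACGTG was found for 1 of the 10, Ldha, against 8.09% of genes. The 3 promoters printed here belong to the genes whose level in cKO replicate 2 was furthest below WT (Tpi1 and Ldha) and nearest to it (Pgk1), and capitals mark ACGTG or its reverse complement CACGT.
Ldha, chr7:46845554-46845853, plus strand: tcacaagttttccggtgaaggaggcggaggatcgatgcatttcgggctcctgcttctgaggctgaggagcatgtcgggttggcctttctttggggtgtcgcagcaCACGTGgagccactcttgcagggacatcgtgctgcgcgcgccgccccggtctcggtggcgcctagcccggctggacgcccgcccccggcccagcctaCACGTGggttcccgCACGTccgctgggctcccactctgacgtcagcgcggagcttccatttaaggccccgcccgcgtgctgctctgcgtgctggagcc
Tpi1, chr6:124814109-124814408, minus strand: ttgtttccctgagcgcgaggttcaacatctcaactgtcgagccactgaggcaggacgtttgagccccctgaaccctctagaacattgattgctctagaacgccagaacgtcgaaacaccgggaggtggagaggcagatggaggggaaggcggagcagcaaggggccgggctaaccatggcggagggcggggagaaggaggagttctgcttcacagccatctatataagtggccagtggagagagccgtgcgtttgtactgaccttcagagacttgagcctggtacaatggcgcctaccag
Pgk1, chrX:106186850-106187149, plus strand: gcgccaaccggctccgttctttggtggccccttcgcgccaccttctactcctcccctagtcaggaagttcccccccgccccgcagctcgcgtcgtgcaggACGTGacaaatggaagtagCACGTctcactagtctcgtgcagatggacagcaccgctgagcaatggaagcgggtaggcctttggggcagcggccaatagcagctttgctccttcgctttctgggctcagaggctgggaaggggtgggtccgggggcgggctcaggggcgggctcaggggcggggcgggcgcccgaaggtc
The printed Ldha window holds 5 matches counted over both strands, 4 of them inside its 2 E-boxes, and the other Ldha window holds none. The Pgk1 window holds 2, and the Tpi1 window holds none. On the log2(CPM + 1) scale against WT, cKO replicate 2 was at -0.71 for Tpi1, -0.60 for Ldha and -0.16 for Pgk1. A link between matches and level was not tested. A match is a run of letters and not a measured site.

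The genes around the pathway were taken from lists of pathway membership, and counts of genes below or above WT in both cKO libraries stand against 20% and 15.8% of all genes tested, as given above. No gene of any of these lists passed edgeR's quasi-likelihood test or DESeq2. In edgeR's test 2 genes, Egln2 and Pfkfb1, had an unadjusted p under 0.05, and Pfkfb1 had low counts, given below. Of 19 other glycolytic isozymes, 13 were tested, with a median log2 fold change of 0.21 (0.14 over the 8 at a mean of 20 CPM or more). Of these 13, 3 lay above WT in both cKO libraries (Hk3, Gapdh and Eno3) and 1 lay below (Hk1). Unlike for the 10, cKO replicate 2 was the lowest library for only 4 of the 13, against 39.1% of all genes tested. Set against the mean of WT on the log2(CPM + 1) scale, the median of the 13 was 0.26 for cKO replicate 2. For cKO replicate 1 it was -0.02. Gapdh was at 71.3 and 86.1 CPM in cKO and at 56.4 and 46.5 CPM in WT, with a log2 fold change of 0.61 ± 0.27 (SE). Its counts are uncertain, since 82.5% of the windows of its transcript also occur in other annotated genes, 222 in number. Pgam1, for the mutase between Pgk1 and enolase, was at 357 and 217 CPM in cKO and at 305 and 285 CPM in WT, with the highest and the lowest value both in cKO, as for Ldha.

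Of 7 regulators of phosphofructokinase, 5 were tested and 3 lay below WT in both cKO libraries (Pfkfb3, Pfkfb1 and Pfkfb2). Pfkfb1 had 0 and 0 counts in cKO and 29 and 56 in WT. Pfkfb2 had 15 and 0 counts in cKO and 69 and 72 in WT. The median log2 fold change was -0.37 over the list and -0.25 over the 3 at a mean of 20 CPM or more. Pfkfb3, whose product makes the activator fructose 2,6-bisphosphate, was at 577 and 417 CPM in cKO and at 639 and 646 CPM in WT, with a log2 fold change of -0.37 ± 0.21 (SE). Pfkfb4, of the same enzyme family, was at 64.7 and 41.8 CPM in cKO and at 45.3 and 55.0 CPM in WT, and Tigar, whose product lowers fructose 2,6-bisphosphate, was at 39.6 and 43.3 CPM in cKO and at 56.5 and 42.0 CPM in WT. Their groups overlapped. All 8 genes of the pentose phosphate pathway, which branches off at glucose 6-phosphate and makes NADPH, were tested, their log2 fold changes had a median of -0.22 (-0.27 over the 6 at a mean of 20 CPM or more), and 3 lay below WT in both cKO libraries. Pgd was at 114 and 59.3 CPM in cKO and at 128 and 142 CPM in WT. Rpe was at 65.5 and 45.3 CPM in cKO and at 94.0 and 75.1 CPM in WT, and G6pdx, for the first enzyme of that pathway, was at 176 and 171 CPM in cKO and at 212 and 185 CPM in WT. These genes lay below WT in both cKO libraries, so a cKO library had to be the lowest, and it was cKO replicate 2 in each. Over the list, cKO replicate 2 was the lowest for 5 of the 8 genes, against 39.1% of all genes tested.

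Of 13 genes for entry of pyruvate into mitochondria, all were tested, and 4 lay below WT in both cKO libraries (Pdk1, Pdk4, Mpc2 and Pdp2) and 1 above (Pdhb). The median log2 fold change was -0.31 over the 13 genes and -0.01 over the 8 of them at a mean of 20 CPM or more, so the value over all 13 rests on genes with low counts. Pdk1, a kinase that inhibits pyruvate dehydrogenase, was at 219 and 195 CPM in cKO and at 273 and 280.0 CPM in WT, with a log2 fold change of -0.42 ± 0.17 (SE). Pdk4, another such kinase, chosen after its values were seen, had 17 and 0 counts in cKO and 165 and 101 in WT. Mpc2, for a subunit of the mitochondrial pyruvate carrier, was at 33.1 and 22.3 CPM in cKO and at 39.2 and 39.0 CPM in WT. Dlat, for a subunit of pyruvate dehydrogenase, was at 56.8 and 33.5 CPM in cKO and at 64.4 and 48.5 CPM in WT, and its groups overlapped.

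Of 21 regulators and non-glycolytic targets of HIF-1, 17 were tested. Their log2 fold changes had a median of 0.05, which was -0.01 over the 11 at a mean of 20 CPM or more. Of these 17, 1 lay above WT in both cKO libraries, the target P4ha2, at 3.69 and 4.93 CPM in cKO and at 2.23 and 3.34 CPM in WT. Below WT in both cKO libraries lay 5, namely Hif1a, Hif1an, Ddit4, Egln1 and Egln2. The last 2 encode prolyl hydroxylases that mark HIF for destruction. The target Ddit4 had only 11 and 4 counts in cKO and 13 and 19 in WT. Hif1a was at 591 and 422 CPM in cKO and at 748 and 685 CPM in WT, with a log2 fold change of -0.50 ± 0.21 (SE). Egln2 was at 42.1 and 35.9 CPM in cKO and at 71.9 and 69.9 CPM in WT, with a log2 fold change of -0.86 ± 0.26 (SE), and Egln1 was at 22.2 and 12.7 CPM in cKO and at 25.4 and 22.6 CPM in WT. The targets Bnip3 and P4ha1 had log2 fold changes of 0.05 and 0.14, and their groups overlapped.

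**Figure D5:**
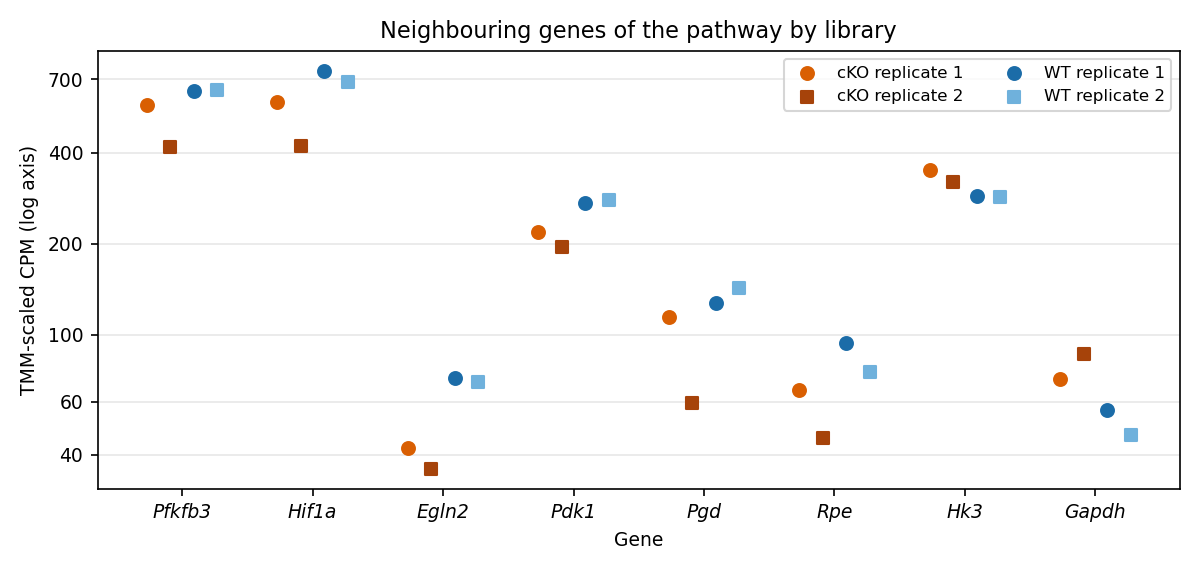
TMM-scaled CPM (log axis) of 8 neighbouring genes in each library, chosen from those with both cKO libraries on 1 side of WT. Others of this kind, such as Hk1, G6pdx, Mpc2, Egln1 and Pdhb, are not shown. Pfkfb3, Hif1a, Egln2, Pdk1, Pgd and Rpe are lower in cKO, and Hk3 and Gapdh higher, none of them past the edgeR test.

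The genes whose pattern over the 4 libraries was most like the mean pattern of the 10 were Galk2, Zfyve16, Abcc3, Gnb1 and Man2b2. Likeness was the root-mean-square difference between centred log2(CPM + 1) values, among the 6160 other genes whose mean reached 20 CPM. It was 0.01 for Galk2 and 0.02 for Man2b2, and 4 libraries are too few for more than a description. Of the 10 genes themselves, Pkm was nearest to their mean pattern at 0.04, and Pfkp and Eno1 were farthest at 0.29 and 0.25. Galk2 was at 147.2 and 107.7 CPM in cKO and at 140.4 and 147.0 CPM in WT, low in cKO replicate 2 alone.

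The authors compared single libraries, 1 cKO against 1 WT at a time, and none of the 40 entries of the 10 genes was called in the authors' deposited tables. None of the 10 was therefore among the 7.48% of genes called in the same direction in all 4 of the authors' deposited tables. The authors' deposited tables called 36.1% and 34.8% of genes for cKO replicate 1 over WT replicates 1 and 2, and 46.8% and 48.8% for cKO replicate 2. Genes called there had a ratio of at least 2 or at most 0.5, and the ratios of the 10 genes in the authors' deposited tables ran from 0.597 to 1.84. The lowest was Tpi1 in cKO replicate 2 over WT replicate 1, and the highest was Pfkp in cKO replicate 1 over WT replicate 2. Of the 40 entries, 38 had an adjusted p under 0.05 in the authors' deposited tables, as did 85.6% of all entries. The ratio was below 1 in all 4 tables for 3 genes, Gpi1, Aldoa and Pkm, and above 1 in all 4 for none. Each library stands in 2 of these tables, so the tables are not independent of each other.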

How the data were processed

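Per the submitters' processing notes, the tools were HTSeq 0.6.0, TopHat2 2.0.12 and Bowtie2 2.2.3, with mm9 as the build; settings, strand and annotation are not given in the sources used here. Gene positions in the deposited table equal those of GENCODE M21 (GRCm38) for 92.1% of 21008 genes. The authors deposited FPKM values and 4 tables of 1 cKO against 1 WT library, which hold, per the file headers, read counts, a normalized signal, the ratio of the 2 libraries (with its log2) and p-values. Their test is not stated, and an adjusted p there can be below its p. From the deposited values, the signal is CPM with a count of 0 replaced by 0.5.

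Counts were joined for 18459 genes. For 4315 of 73836 values missing from both tables of a library, the count was recovered from the FPKM (100.0% whole within 1e-06, at most 4 counts). Counts of a library differed between its 2 tables at 0 genes. Replicates differed beyond sampling noise (chi-square per degree of freedom 118.8 in cKO and 29.4 in WT).

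Differences were tested with edgeR 4.0.16 (R 4.3.3), using quasi-likelihood F tests after filterByExpr and TMM scaling. The threshold was 0.05 on p adjusted by Benjamini-Hochberg over 13086 genes. Standard errors were derived from the F statistic. Alternatives were DESeq2 1.42.0, other scalings and filters, limma 3.58.1 on log2(FPKM + 1, 0.5 or 0.1) for the same genes, a replicate block, leaving out each library, and Eno1 with Eno1b. The scripts were tested on simulated data with changes larger than those fitted for the 10 genes. The 10 genes, the lists and the tests were chosen with earlier results of these data known. Named genes are the 10, at least the 3 with the smallest p of each list at a mean of 20 CPM or more, the 5 most similar genes, Lag3 and Cx3cr1; genes named only to spell out a count fall outside this rule. Shared sequence was counted as exact windows of 50 bases between annotated transcripts, and unannotated copies were not searched.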

Additional observations from a re-analysis of the deposited data

How the results depend on the processing

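No gene of the 10 was called under the other scalings, the other filters, limma with 3 pseudocounts, DESeq2 or the summed enolase counts. Under the other scalings, the other filters, limma, DESeq2 and the replicate block, 9 of the 10 were fitted lower. DESeq2 called 17 genes higher and 22 lower over all genes. Leaving out each library gave 0 to 106 genes higher and 0 to 642 lower over all genes, and 0 to 1 of the 10 called lower. The median log2 fold change of the 10 genes lay between -0.44 and -0.03 when single libraries were left out, and between -0.24 and -0.17 under the other alternatives. The number of the 10 with every cKO library below every WT library was 4 to 9 when single libraries were left out, where 31.8% to 45.6% of all genes tested separated in this way, and 3 under each scaling, in FPKM and with summed enolase counts.

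Leaving out single libraries turned the sign of the log2 fold change of 17 of the 38 named genes, and of 52.7% of all 13086 genes tested. None of these 17 passed edgeR's threshold in any such fit: Hk2 (-0.58 to 0.14), Pfkl (-0.40 to 0.062), Pfkp (-0.38 to 0.64), Pgk1 (-0.16 to 0.012), Ldha (-0.60 to 0.19), Eno1b (-0.064 to 0.83), Ldhb (-0.024 to 0.42), Pgam1 (-0.44 to 0.27), Adpgk (-0.14 to 0.26), Bpgm (-0.36 to 0.084), Pfkfb4 (-0.26 to 0.37), Dlat (-0.75 to 0.0085), Galk2 (-0.42 to 0.035), Zfyve16 (-0.41 to 0.037), Abcc3 (-0.41 to 0.018), Gnb1 (-0.44 to 0.0046) and Man2b2 (-0.40 to 0.036). The cause was not tested. Without cKO replicate 1, edgeR also called Pdk4 (adjusted p of 0.038) and Lag3 and Cx3cr1 (0.029 each). The share of Ldha, cKO minus WT, was -16.7 to 3.15 percentage points, and that of Hk2 -8.58 to -1.94, when single libraries were left out. Replicate numbers in the labels name no shared origin. The deviations of libraries with the same number had a correlation of -0.02 over genes, and a fit with the replicate block called 0 genes and gave a median of -0.24 for the 10. The low counts of Pfkp, Pdk4, Pfkfb1, Pfkfb2 and Ddit4 limit their precision.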
